A study of Mus musculus with 4 samples.

Results

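The transcription factors examined here are *Nfia*, *Nfib*, *Nfix*, *Sox9*, *Sox8*, *Sox10*, *Olig1* and *Olig2*, chosen by name as 8 of the 56884 genes in the count tables, all of them known regulators of the neuron-to-glia transition. They were followed in single nuclei of the medial neocortex of mouse embryos at E16.5, close to the age at which cortical progenitors begin to produce glia. Controls were Sst-Cre/tdTomato embryos and Dnmt1 KO embryos were Sst-Cre/tdTomato/Dnmt1 loxP2, so both groups carried the Cre recombinase and the red reporter, and the groups differed by the floxed allele of *Dnmt1*, which encodes the maintenance DNA methyltransferase. Each genotype had 2 libraries, 1 brain each. *Sst* marks postmitotic somatostatin interneurons, a cell type other than radial glia and their excitatory progeny, and which nuclei carried the deletion was not read from these counts. *Sst* itself was sparse, with 16, 196, 34 and 15 transcripts in the inhibitory neurons of the 4 libraries.

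NFI proteins (NFIA, NFIB and NFIX) bind TTGGC motifs as dimers and promote both the onset of gliogenesis in radial glia and the maturation of neurons. SOX9 and SOX8, members of the SoxE family, are found in radial glia and later in astrocytes, and SOX9 is upstream of *Nfia* during glial specification. SOX10, the third SoxE protein, together with the basic helix-loop-helix factors OLIG1 and OLIG2, defines the oligodendrocyte lineage, in which oligodendrocyte precursor cells (OPCs) express the growth factor receptor *Pdgfra*.

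Of 1127729 barcodes, 29656 nuclei with 1500 to 60000 transcripts were kept, namely 5640, 12064, 7047 and 4905 per library. Values of the 4 libraries are given throughout in the order Dnmt1 KO replicate 1, Dnmt1 KO replicate 2, control replicate 1, control replicate 2. No barcode was shared between libraries. Library totals ran from 96455278 to 201141704 transcripts, and the median nucleus held 12274, 12383.5, 12401 and 21140 transcripts. Control replicate 2 was alone in batch 2, so this library and that batch cannot be told apart. Over all nuclei *Dnmt1* was at 61.8, 47.5, 59.6 and 56.0 CPM (counts-per-million), and in the inhibitory gate at 58.6, 46.0, 53.1 and 53.8 CPM. These levels overlapped between genotypes. They do not check the labels, since the deletion was aimed at *Sst*-Cre cells and no gate isolates these cells. Counts per gene also do not separate transcripts with and without the deleted exons. Nuclei were sorted into gates by marker transcripts, none of them a member: radial glia (*Pax6* and *Slc1a3*, 262, 306, 196 and 113 nuclei), cycling radial glia (337 to 639), intermediate progenitors and newborn neurons with *Eomes* (606, 693, 492 and 432), excitatory neurons (2908, 6523, 3573 and 3159), inhibitory neurons (293, 1219, 991 and 274) and *Pdgfra*-positive nuclei (7, 110, 22 and 11). All 7 radial glial check genes were detected in the radial glia gate of every library, summing to 1724, 2821, 2834 and 2506 CPM against 1223 to 1377 CPM in excitatory neurons, where such RNA was therefore also counted. Levels are summed counts per library and gate, scaled to the library and gate total and not to gene length, and are therefore compared within a gene and not between genes.

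In the mouse genome (GRCm39, GENCODE vM39) *Nfia* lies on chromosome 4 at 97660971-98007111 (plus strand) and *Nfib* on the same chromosome at 82208410-82623987 (minus strand), and *Nfix* lies at 8:85426505-85527046. *Sox9* lies at 11:112673009-112678586, *Sox8* at 17:25784634-25789726 and *Sox10* at 15:79039108-79049469. *Olig2* (16:91019435-91025567) and *Olig1* (16:91066660-91068821) are neighbours, 41.1 kb apart. Every member except *Sox8* and *Sox10* overlaps at least 1 annotated gene on the opposite strand, and the strand setting of the counting was not given in the sources used here, so reads of *Olig1* and *Gm15966*, or of *Sox9* and *BC006965*, cannot be told apart. To show how the letters bound by NFI proteins stand in the start regions of members of each family, RefSeq windows (GRCm38.p6) from 250 bases before to 50 bases after a transcription start are printed 5′ to 3′ on the gene's strand, with TTGGC or its reverse complement GCCAA in capitals: *Nfia* chr4:97581693-97581992, window 4 of *Nfix* chr8:84772826-84773125, *Sox8* chr17:25570637-25570936 and *Olig2* chr16:91225300-91225599.
Nfia: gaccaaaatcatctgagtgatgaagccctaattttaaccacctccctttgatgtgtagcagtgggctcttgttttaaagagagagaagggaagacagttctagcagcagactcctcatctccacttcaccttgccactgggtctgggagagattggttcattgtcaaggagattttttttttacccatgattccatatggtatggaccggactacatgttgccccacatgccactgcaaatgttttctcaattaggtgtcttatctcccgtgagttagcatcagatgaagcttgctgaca
Nfix: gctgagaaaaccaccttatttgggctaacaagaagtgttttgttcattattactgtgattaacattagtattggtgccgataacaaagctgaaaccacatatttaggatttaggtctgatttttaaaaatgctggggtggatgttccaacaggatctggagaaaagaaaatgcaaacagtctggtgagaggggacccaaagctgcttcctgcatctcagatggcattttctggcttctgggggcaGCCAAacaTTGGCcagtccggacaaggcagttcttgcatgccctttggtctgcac
Sox8: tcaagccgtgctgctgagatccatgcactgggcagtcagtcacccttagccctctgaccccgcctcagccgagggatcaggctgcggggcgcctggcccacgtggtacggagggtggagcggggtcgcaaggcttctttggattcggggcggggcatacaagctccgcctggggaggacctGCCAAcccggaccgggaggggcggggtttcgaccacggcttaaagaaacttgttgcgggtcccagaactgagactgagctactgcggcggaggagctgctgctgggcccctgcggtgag
Olig2: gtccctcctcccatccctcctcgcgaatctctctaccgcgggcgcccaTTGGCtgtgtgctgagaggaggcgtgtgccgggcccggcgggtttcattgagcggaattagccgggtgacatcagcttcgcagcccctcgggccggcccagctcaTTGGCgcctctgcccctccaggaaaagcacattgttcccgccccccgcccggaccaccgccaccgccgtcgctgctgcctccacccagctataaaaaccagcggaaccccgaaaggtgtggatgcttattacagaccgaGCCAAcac
The RefSeq table held 7 windows for these 4 members. The *Olig2* window had 3 matches, this *Nfix* window had 2, GCCAA and then TTGGC, around the start site, *Sox8* had 1 and *Nfia* had 0. The *Nfix* window printed was the one with the most matches, and windows 1, 2 and 3 of that gene had 0, 1 and 1. Matches were found in 5 of the 7 windows, against 46.7% of all 32851 windows of that length, and the full palindrome, TTGGC followed by GCCAA after 5 bases, was in 0 of the 7 and in 0.0365% of all windows. These are matches of letters, not binding sites.

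The 3 NFI genes were high throughout the excitatory lineage and low in inhibitory neurons. *Nfia* stood at 5541, 4116, 3958 and 3345 CPM in radial glia, 6418, 4527, 4330 and 4148 CPM in the *Eomes* gate, 3724, 1697, 2243 and 1857 CPM in excitatory neurons and 629, 384, 327 and 316 CPM in inhibitory neurons. Among these gates, with the cycling gates left aside, the *Eomes* gate was highest in every library, then radial glia, excitatory and inhibitory neurons. The lowest excitatory value was above the highest inhibitory one. The tests between gates scaled the sums by TMM factors, which set most genes level, and the calls of *Nfib* and *Nfix* between radial glia and excitatory neurons depended on this scaling. *Nfia* was higher in radial glia with TMM (log2 fold change 0.46, SE 0.12, adjusted p = 0.00207) and, in a fit added after the data were seen, with counts scaled to the totals alone (0.87, SE 0.12, adjusted p = 1.03e-06), and the CPM ratio of radial glia to excitatory neurons was 1.49, 2.43, 1.76 and 1.80. *Nfib* was called lower in radial glia with TMM (-0.40, SE 0.16, adjusted p = 0.0323), was level with total scaling (0.0048, adjusted p = 0.982) and had CPM ratios of 0.854, 1.14, 0.917 and 1.14, on both sides of 1. *Nfix* was not called with TMM (-0.08, SE 0.14, adjusted p = 0.675) and was called higher in radial glia with total scaling (0.33, adjusted p = 0.0414), with CPM ratios of 1.22 to 1.36. Of the 3 genes, *Nfia* alone thus kept its direction and its call under both scalings. These p-values are from edgeR's quasi-likelihood test with the library as a block and Benjamini-Hochberg adjustment over all genes, which called 57% of the 14637 genes tested (4218 higher and 4131 lower in radial glia) and 4 of the 6 members that passed the low-count filter. Total scaling moved the median over all genes by 0.41 and called 7433 higher and 2324 lower. Of 14 alternative processings, the *Nfia* call held in 11 and that of *Nfib* in 6. Log2 fold changes given hereafter are on the TMM scale, relative to most genes.

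From radial glia to the *Eomes* gate the 3 NFI genes were higher with TMM, by less than the SoxE genes fell. The log2 fold changes were 0.30 for *Nfia* (SE 0.12, adjusted p = 0.0462), 0.43 for *Nfib* (SE 0.16, adjusted p = 0.0345) and 0.45 for *Nfix* (SE 0.14, adjusted p = 0.0166), in a comparison that called 38% of genes (2581 higher, 2981 lower) and 5 of 6 members tested. With total scaling, which called 1867 higher and 3718 lower, the 3 differences kept their direction and none was called (0.20, 0.32 and 0.34, adjusted p = 0.2, 0.112 and 0.064). The *Nfia* call was made in 1 of 14 alternatives, against 6 for *Nfib* and 10 for *Nfix*. *Nfib* itself was at 4970, 4082, 4150 and 4514 CPM in radial glia and at 6880, 4785, 5160 and 5454 CPM in the *Eomes* gate, and *Nfix* went from 1101, 798, 815 and 1108 CPM to 1468, 1039, 1002 and 1321 CPM. Each library was higher in the *Eomes* gate for all 3 genes, with overlap between gates across libraries. Between cycling and non-cycling radial glia, where 13.7% of genes were called, 0 of 6 members were called by edgeR (0 unadjusted, and 0 by DESeq2), and the log2 fold changes were 0.10 for *Nfia*, 0.02 for *Nfib*, -0.01 for *Nfix* and 0.06 for *Sox9*.

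Of the 6 comparisons between gates, that of inhibitory with excitatory neurons gave the log2 fold change of largest size for each NFI gene. The excitatory level was 4.42 to 6.86 times the inhibitory one for *Nfia*, 3.37 to 7.19 times for *Nfib* and 7.99 to 10.8 times for *Nfix*, with log2 fold changes of -2.56 (SE 0.13, adjusted p = 2.55e-13), -2.35 (SE 0.17, adjusted p = 1.16e-10) and -3.26 (SE 0.16, adjusted p = 2.06e-13). This comparison called 29% of genes and 5 of 6 members tested, and the 3 NFI calls held in all 14 alternatives. *Nfix* in inhibitory neurons was at 83.7, 73.6, 77.8 and 83.7 CPM, with little spread between libraries. *Nfia* transcripts were still found in 44.4%, 51.4%, 50.6% and 62.0% of inhibitory nuclei, against 88.2% to 99.3% of excitatory nuclei and 99.5% to 100% of radial glia, at median depths of 9042 to 14613, 14055.5 to 23183 and 9969 to 15895 transcripts.

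**Figure D1:**
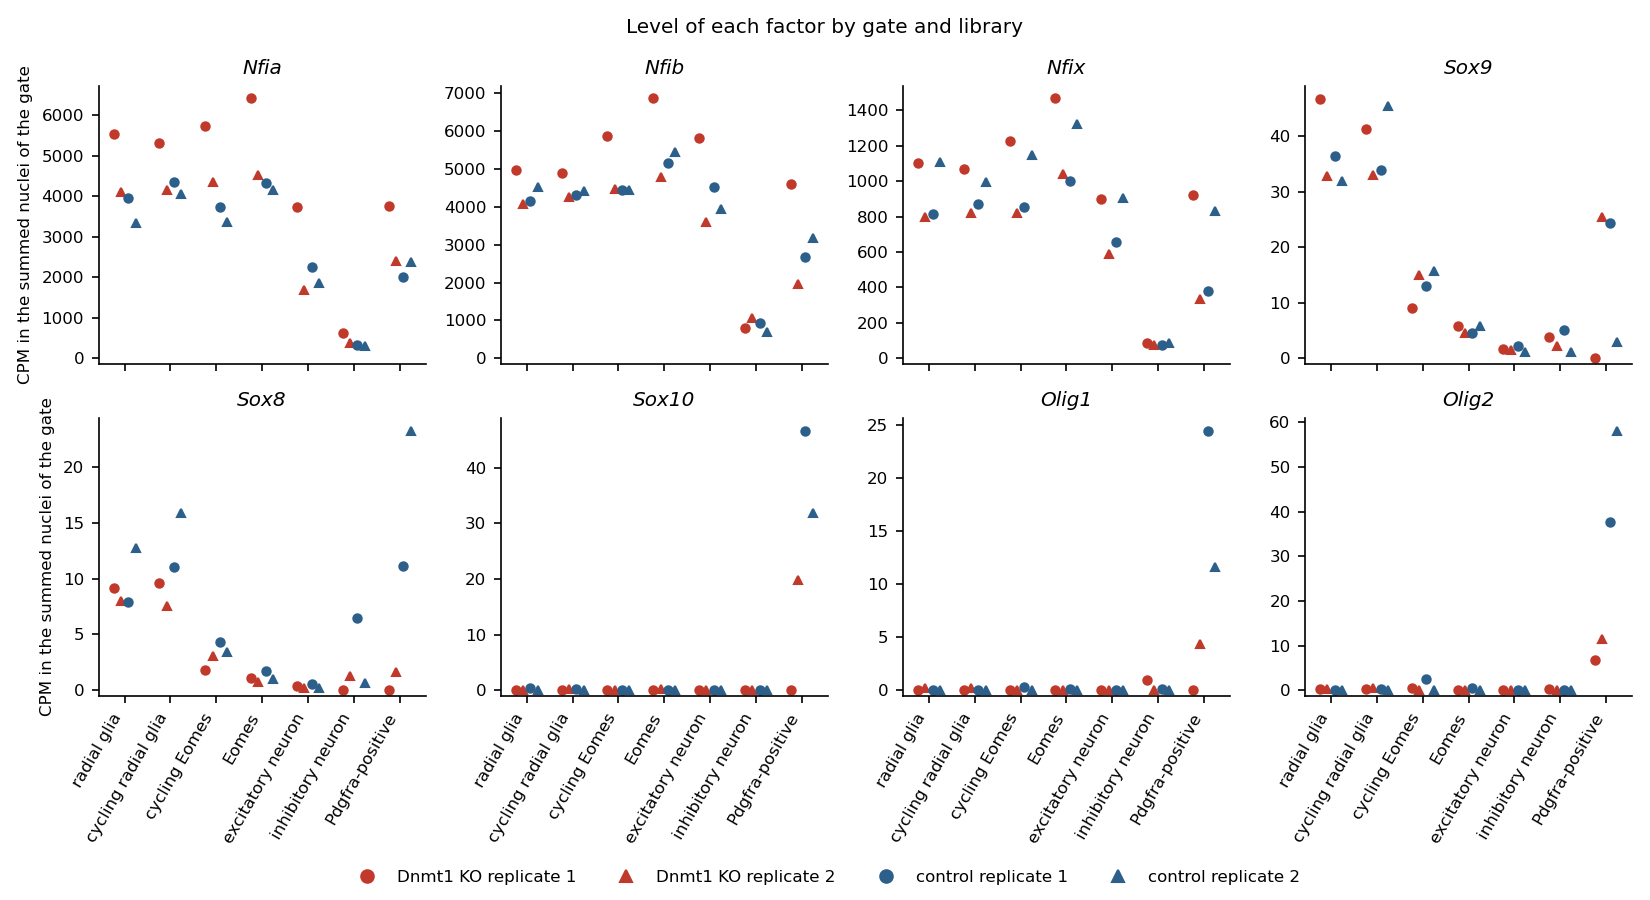
Summed counts as CPM (vertical axis, 1 panel per gene) of the 8 transcription factors in 7 gates, with 1 point per library coloured by genotype. Among these gates the NFI genes are lowest in inhibitory neurons, *Sox9* and *Sox8* are highest in cycling and non-cycling radial glia except that *Sox8* was as high or higher in *Pdgfra*-positive nuclei of control replicates 1 and 2 (11.1 and 23.2 CPM), and *Sox10*, *Olig1* and *Olig2* are near 0 outside the *Pdgfra*-positive gate.

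Among excitatory neurons the NFI genes differed by layer identity, with higher levels in nuclei with deep-layer transcripts (*Foxp2* and *Tle4*) than in those with the upper-layer gene *Cux2*. *Nfia* was at 3969, 2447, 3124 and 2516 CPM in deep-layer nuclei and at 2609, 559, 785 and 730 CPM in upper-layer nuclei. The ratio of deep to upper was 1.52 in Dnmt1 KO replicate 1 and 4.38, 3.98 and 3.45 in the other 3 libraries. The log2 fold change was 1.73 for *Nfia* (SE 0.25, adjusted p = 0.0023), 0.73 for *Nfib* (SE 0.13, adjusted p = 0.0048) and 0.39 for *Nfix* (SE 0.11, adjusted p = 0.036). *Sox9*, the fourth member that passed the filter, was not called (0.07, SE 0.20, adjusted p = 0.884), and of all 15643 genes tested 34.1% were called (3174 higher and 2153 lower in deep layers, against 2739 and 3494 with total scaling). *Nfib* was at 5834, 4281, 5089 and 4634 CPM in deep-layer and at 5166, 2460, 3122 and 2513 CPM in upper-layer nuclei, higher in deep layers in every library. The *Nfia* call held in all 14 alternatives (log2 fold changes 1.46 to 2.06), that of *Nfib* in 13 and that of *Nfix* in 10, not with total scaling (0.30, adjusted p = 0.0767). For *Nfix* the ratio of deep to upper was 0.99, 1.51, 1.44 and 1.07, so in Dnmt1 KO replicate 1 the layers were level. That library also held only 167 upper-layer nuclei, 2.96% of its nuclei, against 11.1% to 15.2% in the others. *Nfia* transcripts were present in 98.1% to 99.8% of deep-layer nuclei and in 97.6%, 72.9%, 79.7% and 86.0% of upper-layer nuclei, with deep-layer nuclei sequenced more deeply in every library (medians of 16257, 16748, 17965.5 and 28079 against 12941, 11998, 12788 and 19517.5 transcripts), and the part of depth in this detection was not tested.

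**Figure D2:**
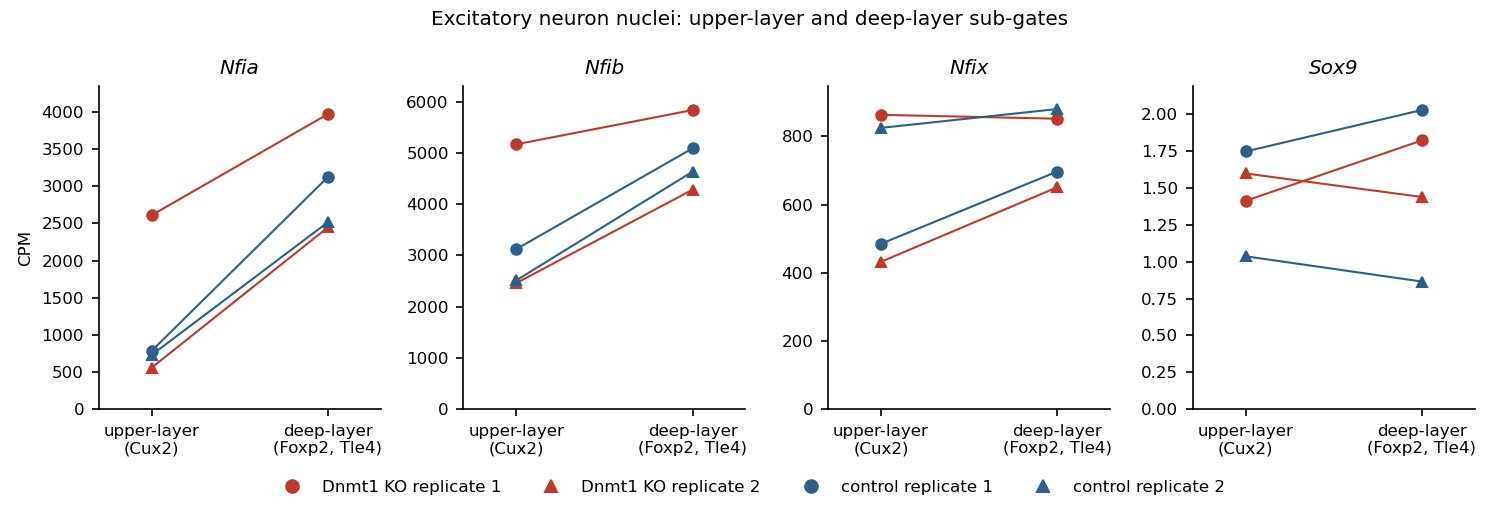
CPM of *Nfia*, *Nfib*, *Nfix* and *Sox9* in upper-layer and deep-layer excitatory nuclei, with lines joining the values of a library. *Nfia* rises from upper to deep in all 4 libraries, with the shallowest ratio, 1.52, in Dnmt1 KO replicate 1.

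*Sox9* and *Sox8* were concentrated in radial glia. *Sox9* was at 46.7, 32.8, 36.4 and 31.9 CPM in radial glia (137, 123, 87 and 70 transcripts), 41.2, 33.0, 34.0 and 45.5 CPM in cycling radial glia, 9.01, 15.0, 12.9 and 15.7 CPM in cycling *Eomes* nuclei, 5.75, 4.61, 4.60 and 5.88 CPM in other *Eomes* nuclei and 1.62, 1.52, 2.25 and 1.16 CPM in excitatory neurons. The 4 libraries gave the same order of these non-cycling gates without overlap, and the 2 radial glia gates overlapped. The excess of radial glia over excitatory neurons was 16.2 to 28.8 times, with a log2 fold change of 4.10 (SE 0.26, adjusted p = 1.16e-11), and that of *Sox8* was 4.47 (SE 0.48, adjusted p = 4.49e-08). From radial glia to the *Eomes* gate *Sox9* fell by 2.70 on the log2 scale (SE 0.28, adjusted p = 7.11e-08) and *Sox8* fell by 2.99 (SE 0.53, adjusted p = 9.75e-05). These 4 calls held in all 14 alternatives.

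*Sox8* was counted sparsely, with 27, 30, 19 and 28 transcripts in radial glia (9.20, 8.00, 7.94 and 12.8 CPM), 8, 7, 11 and 9 in the *Eomes* gate and 17, 24, 31 and 14 in the far larger excitatory gate (0.39, 0.24, 0.55 and 0.18 CPM). *Sox9* transcripts were found in 35.9%, 29.1%, 34.2% and 42.5% of radial glia, against 2.20% to 3.08% of excitatory nuclei, which were sequenced more deeply, and 1.46% to 3.94% of inhibitory nuclei. The share in radial glia was thus well above that in either neuron gate, and most radial glia had no *Sox9* transcript at this depth. In inhibitory neurons *Sox8* was called higher than in excitatory neurons (log2 fold change 2.76, SE 0.51, adjusted p = 0.000166), from 0, 15, 63 and 3 transcripts. This call rests on control replicate 1, and without it the log2 fold change was 1.79 (adjusted p = 0.0696). In the same inhibitory gate markers of the ventral or striatal lineage summed to 2240 CPM in control replicate 1 against 65.6, 279 and 85.3 CPM in the others, and their part in the result was not tested. *Sox9* was also called there (0.89, SE 0.32, adjusted p = 0.0407), with values of 3.82, 2.20, 5.01 and 1.15 CPM, and kept the call in 10 of 14 alternatives.

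**Figure D3:**
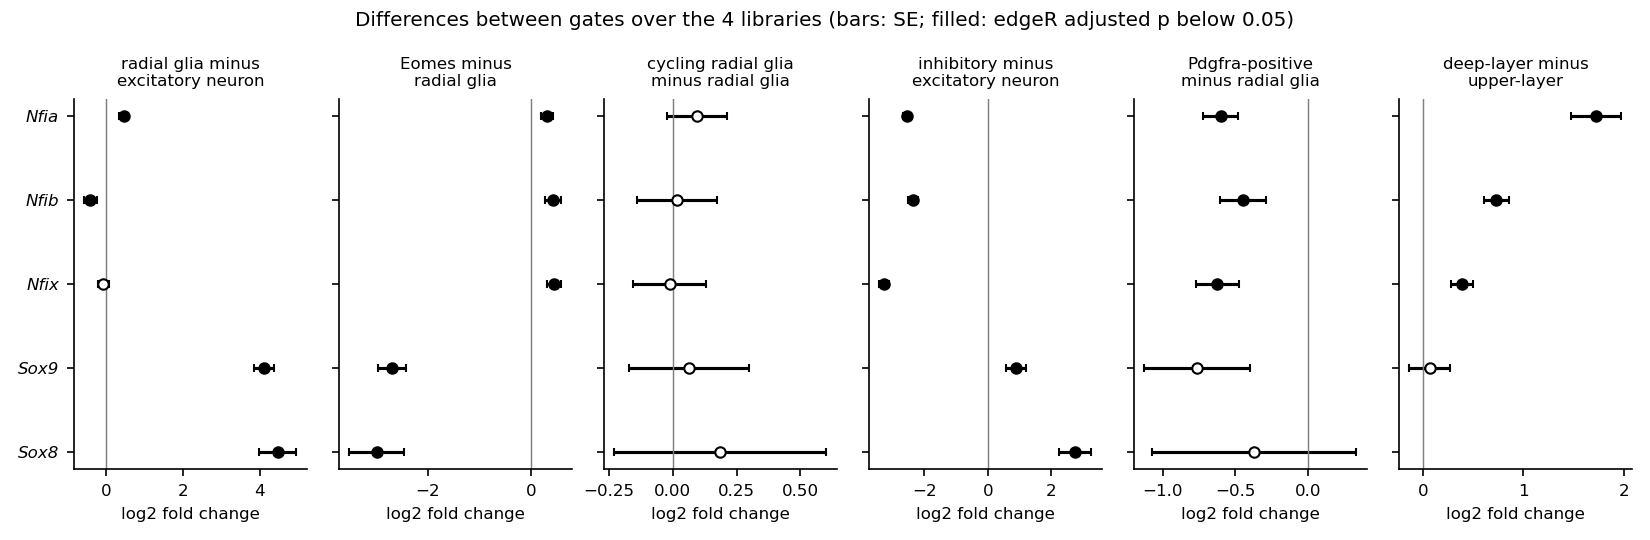
Log2 fold changes (horizontal axis) with their standard errors for the NFI genes, *Sox9* and *Sox8* in 6 comparisons between gates, filled where edgeR's adjusted p was below 0.05. *Sox9* and *Sox8* stand at 4.10 and 4.47 in radial glia against excitatory neurons, and the NFI genes lie closer to 0 there, with *Nfib* at -0.40 on the TMM scale and at 0.0048 with total scaling. *Olig2*, with 2 transcripts in all radial glia, is not plotted.

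The genes of the oligodendrocyte lineage, *Sox10*, *Olig1* and *Olig2*, were nearly silent outside a small number of nuclei. Over all nuclei they gave 104, 48 and 148 transcripts, of which 65.4%, 47.9% and 39.9% came from the *Pdgfra*-positive gate, in 35, 17 and 30 of its 150 nuclei. At least 1 of the 3 genes was detected in 20, 71, 62 and 15 nuclei per library, of which 1, 27, 15 and 6 lay in this gate. In every library most nuclei with a transcript of these genes were thus outside the gate. In radial glia, 877 nuclei in all, *Olig2* was counted 1, 1, 0 and 0 times, *Olig1* 0, 1, 0 and 0 times and *Sox10* 0, 0, 1 and 0 times. With all libraries summed, the level in *Pdgfra*-positive nuclei was 121 times that in radial glia for *Olig2* (exact 95% interval 31.9 to 1019), 94.0 times for *Olig1* (15.3 to 3874) and 278 times for *Sox10* (48.2 to 11140), intervals that cover counting error only. Dnmt1 KO replicate 2 held 110 of the 150 *Pdgfra*-positive nuclei, so these ratios weigh that library most. *Olig2* passed the low-count filter through its counts in this gate alone, so edgeR's fold change and p for it are not given. *Sox10* and *Olig1* did not pass the low-count filter in the comparisons between gates. Of the *Olig2* transcripts, a further 37 (25.0%) lay in 25 cycling nuclei outside the radial glia and *Eomes* gates. Excitatory neurons, 16163 nuclei, held 16 *Sox10* (15.4%), 10 *Olig1* (20.8%) and 18 *Olig2* (12.2%) transcripts. The gate of nuclei with both *Pdgfra* and collagen transcripts held 0, 171, 0 and 4 nuclei and 0 transcripts of the 3 genes.

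The *Pdgfra*-positive gate was mixed, and its libraries differed in size and makeup. It held 0.124%, 0.912%, 0.312% and 0.224% of nuclei. The 6 check genes for OPCs (*Cspg4*, *Lhfpl3*, *Gpr17*, *Bcan*, *Pcdh15* and *Tnr*) were all detected in each library, summing to 4890, 4644, 10431 and 6150 CPM, against 677 to 1323 CPM in radial glia. Choroid plexus markers summed to 6140 CPM in Dnmt1 KO replicate 2 and to 20.2, 0 and 0 CPM in the others. Fibroblast markers summed to 17.1 CPM there (4 of 5 detected, *Lum* at 0) and to 0, 2.22 and 0 CPM in the others. The part of both lists in the results was not tested. *Olig2* was at 6.73, 11.6, 37.7 and 58.0 CPM in this gate (1, 21, 17 and 20 transcripts), *Sox10* at 0, 19.8, 46.6 and 31.9 CPM (0, 36, 21 and 11 transcripts) and *Olig1* at 0, 4.41, 24.4 and 11.6 CPM (0, 8, 11 and 4 transcripts). *Sox8* was at 0, 1.65, 11.1 and 23.2 CPM (0, 3, 5 and 8 transcripts). EdgeR called 0% of 5947 genes by genotype in this gate, and how many of all genes separate the genotypes was not counted. *Olig2* and *Sox10* were among those tested, and *Olig1* and *Sox8* were not. Dnmt1 KO replicate 1 gave only 7 nuclei, for which a share of 0 has an exact 95% upper limit of 41.0%. When the gate was narrowed to nuclei with at least 3 transcripts of the OPC check genes, a setting chosen after the data were seen, 4, 53, 18 and 7 nuclei remained, and *Sox10* was at 0, 34.1, 50.9 and 45.0 CPM, *Olig2* at 11.8, 18.9, 38.7 and 24.6 CPM and *Olig1* at 0, 7.57, 26.6 and 4.09 CPM. *Sox8* was at 0, 2.84, 12.1 and 16.4 CPM. Control replicate 2 and Dnmt1 KO replicate 2 were closer for *Olig2*, at 24.6 against 18.9 CPM. For *Olig1* control replicate 2 was the lower, at 4.09 against 7.57 CPM.

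**Figure D4:**
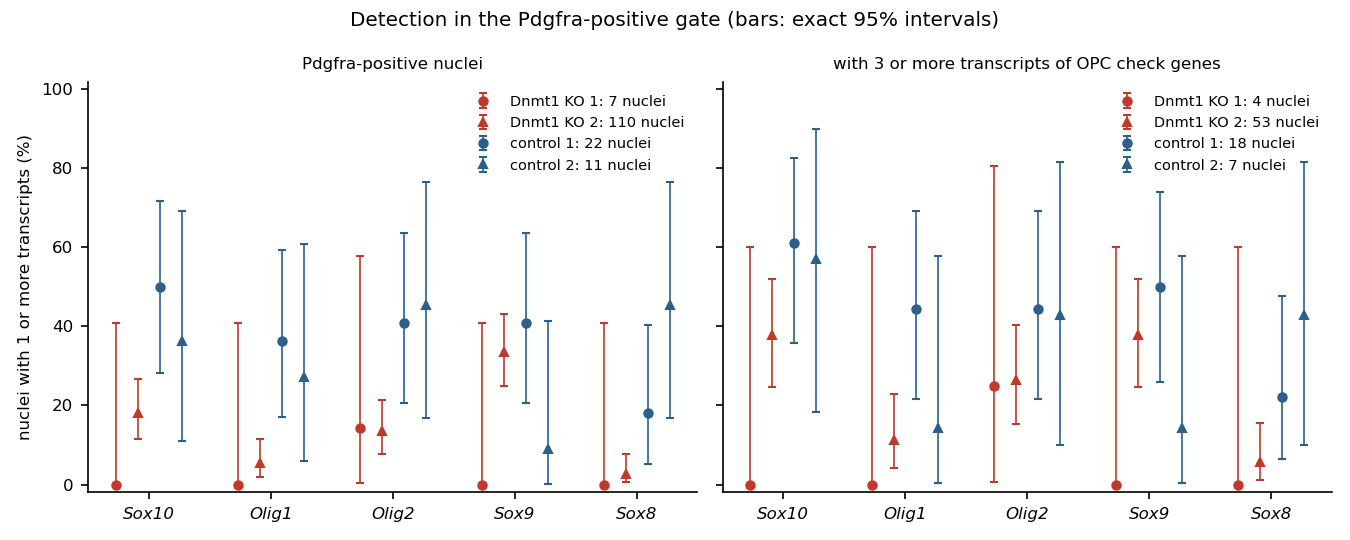
Percent of *Pdgfra*-positive nuclei (vertical axis) with a transcript of *Sox10*, *Olig1*, *Olig2*, *Sox9* or *Sox8* in each library, with exact 95% binomial bars, for all such nuclei (left: 7, 110, 22 and 11) and for those with OPC check genes (right: 4, 53, 18 and 7). Dnmt1 KO replicate 2 has 18.2% of nuclei with *Sox10* against 50% and 36.4% in the controls on the left, and the bars of the smallest libraries span most of the axis.

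Within the *Pdgfra*-positive gate the oligodendrocyte factors were often detected in the same nuclei. At least 2 of *Olig1*, *Olig2* and *Sox10* were detected in 0, 13, 9 and 5 nuclei of the gate, and in 0, 15, 10 and 6 nuclei of all gates, so nuclei with several of these factors were almost all *Pdgfra*-positive. With gates on thinned nuclei the numbers were 0, 3, 3 and 0 in the gate and 0, 3, 3 and 2 in all gates, so control replicate 2 then had none in it. *Sox10* was detected in 60% of *Olig2*-positive and 11.6% of *Olig2*-negative nuclei in Dnmt1 KO replicate 2, in 77.8% and 30.8% in control replicate 1 and in 60% and 16.7% in control replicate 2. Nuclei with at least 1 of the 3 factors also carried more of genes that had no part in the grouping, such as *Lhfpl3*, an OPC membrane protein gene, at 8453 against 336 CPM in Dnmt1 KO replicate 2 (27 against 83 nuclei), 7601 against 2544 CPM in control replicate 1 (15 against 7) and 7620 against 16.6 CPM in control replicate 2 (6 against 5). *Cspg4*, which encodes the NG2 proteoglycan of OPCs, was at 293 against 6.23, 230 against 43.9 and 330 against 0 CPM in the same pairs. *Sox6*, a SoxD factor of OPCs, was at 4897 against 695, 5634 against 2047 and 5382 against 160 CPM. The 3 libraries therefore gave the same direction for each of these genes.

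The NFI genes were not higher in nuclei with an oligodendrocyte factor in all 3 libraries. *Nfia* was detected in every nucleus with an oligodendrocyte factor in these libraries (27 of 27, 15 of 15 and 6 of 6), at 1951 against 2573, 2120 against 1762 and 3437 against 1440 CPM, a direction that differed between libraries. *Nfib* was lower in nuclei with an oligodendrocyte factor in all 3, at 1936 against 1985, 2532 against 3005 and 1908 against 4326 CPM. *Nfix* was lower in them too, at 287 against 358, 284 against 600 and 373 against 1247 CPM. In the comparison of *Pdgfra*-positive nuclei with radial glia edgeR called 23.5% of genes (1848 higher and 1596 lower, against 1626 and 2257 with total scaling) and 4 of the 6 members tested, 1 of them *Olig2*. *Pdgfra*-positive nuclei had lower *Nfia* (log2 fold change -0.60, SE 0.12, adjusted p = 0.000705), *Nfix* (-0.62, SE 0.15, adjusted p = 0.00344) and *Nfib* (-0.45, SE 0.16, adjusted p = 0.0427), calls made in 13, 11 and 7 of 14 alternatives, total scaling among them. With gates on thinned nuclei the differences were larger, at -1.28, -1.54 and -1.36, and at a gate minimum of 3 they were -0.77, -1.16 and -0.92. *Sox9* and *Sox8* were not called between these gates (-0.76, SE 0.36, adjusted p = 0.142, and -0.37, SE 0.70, adjusted p = 0.788). *Sox9* in the *Pdgfra*-positive gate was at 0, 25.4, 24.4 and 2.90 CPM, from 0, 46, 11 and 1 transcripts, so it was near the radial glial level in 2 libraries and near 0 in the other 2. In Dnmt1 KO replicate 2, the library with the choroid plexus markers, *Sox9* was at 24.6 CPM in nuclei with an oligodendrocyte factor and at 25.7 CPM in those without.

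In radial glia *Olig1* and *Olig2* gave only 1 and 2 transcripts in 877 nuclei, so their co-detection, 0 nuclei with both and 0 with *Sox9* and *Olig2*, could not be assessed at this depth. *Nfia* and *Sox9* were together in 94, 89, 67 and 48 radial glia, the same shares as *Sox9* alone, because nearly every radial glial nucleus had *Nfia*. The Dnmt1 KO mean was 32.5% ± 4.80 (SD, n = 2) and the control mean 38.3% ± 5.86 (SD, n = 2), a difference of -5.85 percentage points (exact permutation test over libraries, two-sided p = 0.667, smallest possible 0.333). With nuclei thinned to 5000 transcripts the shares were 17.6%, 16%, 19.3% and 16.7%, a difference of -1.18 points. *Sox9* was detected in 52.2%, 42.3%, 41.2% and 47.8% of *Sox8*-positive radial glia and in 34.3%, 27.9%, 33.5% and 41.1% of *Sox8*-negative ones, in the same direction in all 4 libraries. After thinning the direction differed between libraries, with 14.3%, 0%, 33.3% and 25% against 17.8%, 16.8%, 18.6% and 16.2%.

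The comparison of Dnmt1 KO with control asked whether the loss of *Dnmt1* from the *Sst* lineage went with a change of these factors in surrounding cells, and 0 members were called by edgeR in any of 7 comparisons. Over all nuclei 8 members were tested (0% of 21516 genes called, 1612 at an unadjusted p under 0.05), in the *Pdgfra*-positive gate 5 (0% of 5947, 306 unadjusted), in radial glia 5 (0% of 11662, 588 unadjusted), in cycling nuclei 6 (0% of 16130, 1468 unadjusted), in the *Eomes* gate 4 (0% of 13755, 896 unadjusted), in excitatory neurons 5 (0% of 19122, 1184 unadjusted) and in inhibitory neurons 4 (0% of 13009, 612 unadjusted). At an unadjusted p under 0.05 in edgeR's test there was 1 member in the *Pdgfra*-positive gate (*Olig2*, adjusted p = 0.841), 1 in inhibitory neurons (*Nfia*, adjusted p = 0.892) and 0 in the other 5 comparisons. DESeq2 called 0 members in all 7, with 24 to 205 of all genes called. It gave no adjusted p for *Sox10* and *Olig1* over all nuclei, *Sox10* and *Olig2* in the *Pdgfra*-positive gate, *Sox8* in radial glia and *Olig2* in cycling nuclei. The difference in the genotype effect between radial glia and excitatory, *Eomes* or inhibitory nuclei was called for 0 of 6 members and 0% of genes each, and that between radial glia and *Pdgfra*-positive nuclei for 0 of 6 members and 0.0752% of genes, with 0 members at an unadjusted p under 0.05 and 0 called by DESeq2. With 2 libraries per genotype, these tests leave wide intervals and do not show that the levels were alike.

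In radial glia *Sox9* was at 39.7 ± 9.82 CPM in Dnmt1 KO and 34.1 ± 3.17 CPM in control (SD, n = 2 each; log2 fold change 0.24, SE 0.22, edgeR adjusted p = 0.936), and *Sox8* at 8.60 ± 0.850 and 10.4 ± 3.4 CPM (-0.23, SE 0.35, adjusted p = 0.951). *Nfib* differed by 0.09 (SE 0.21) and *Nfix* by 0.01 (SE 0.24) on the log2 scale. None of these differences was larger than the spread between libraries. *Nfia* was highest in Dnmt1 KO replicate 1 in every gate named above, by 1.35 times the next library in radial glia, 1.42 in the *Eomes* gate, 1.66 in excitatory neurons, 1.64 in inhibitory neurons and 3.32 in upper-layer nuclei, while Dnmt1 KO replicate 2 was above both controls in radial glia, *Eomes* and inhibitory nuclei and below both in excitatory neurons. *Nfia* in Dnmt1 KO replicate 2 against the higher control was 4116 against 3958 CPM in radial glia, 4527 against 4330 in the *Eomes* gate and 384 against 327 in inhibitory neurons. Genes that separate the genotypes in this way were not counted over all genes. The log2 fold change by genotype was 0.43 over all nuclei (SE 0.33, adjusted p = 0.741), 0.43 in radial glia (SE 0.24, adjusted p = 0.926), 0.39 in the *Eomes* gate (SE 0.21, adjusted p = 0.785), 0.42 in excitatory neurons (SE 0.38, adjusted p = 0.822) and 0.68 in inhibitory neurons (SE 0.25, adjusted p = 0.892). Without Dnmt1 KO replicate 1 it was -0.13 over all nuclei and -0.26 in excitatory neurons, so the direction there rests on that library. Without Dnmt1 KO replicate 2 *Nfia* was called in the *Eomes* gate (0.64, adjusted p = 0.0184), in a fit that called 2.29% of genes and in which the lone Dnmt1 KO library is assumed to vary like the controls.

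In the *Pdgfra*-positive gate *Olig2* had a mean of 9.15 ± 3.43 CPM in Dnmt1 KO and 47.9 ± 14.3 CPM in control (SD, n = 2 each), a log2 fold change of -2.07 (SE 0.56, edgeR adjusted p = 0.841) that stayed between -2.65 and -1.12 under 13 alternatives, with 0 calls in the 12 that gave an adjusted p. In nuclei with OPC check genes *Olig2* did not pass the low-count filter, and its libraries were closer, at 11.8, 18.9, 38.7 and 24.6 CPM. *Sox10* gave -1.28 (SE 0.76, adjusted p = 0.974), and -6.64 to -0.94 with 1 library left out. The value of -6.64 is without Dnmt1 KO replicate 2. The remaining Dnmt1 KO library then had 0 transcripts, and the fitted value is no measure of size. Over all nuclei the fold changes were -0.79 for *Olig2* (SE 0.40, adjusted p = 0.659), -0.56 for *Olig1* (SE 0.63, adjusted p = 0.807) and -0.49 for *Sox10* (SE 1.00, adjusted p = 0.905). None passed the test, and the values over all nuclei include the transcripts of the *Pdgfra*-positive gate. *Olig2* and *Sox10* were together in 0%, 8.18%, 31.8% and 27.3% of *Pdgfra*-positive nuclei, a difference of -25.5 points between means of 4.09% ± 5.79 and 29.5% ± 3.21 (SD, n = 2 each; exact permutation p = 0.333, two-sided, the smallest possible). After thinning the genotypes overlapped, at 0%, 3.28%, 20% and 0% of 1, 61, 15 and 4 nuclei (difference -8.36 points, exact permutation p = 1). The difference was -32.4 points in nuclei with OPC check genes. The share of *Pdgfra*-positive nuclei itself was 0.518% ± 0.557 in Dnmt1 KO and 0.268% ± 0.0622 in control (SD, n = 2 each; exact permutation p = 1.00), a difference of 0.250 points that became -0.144 without Dnmt1 KO replicate 2.

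**Figure D5:**
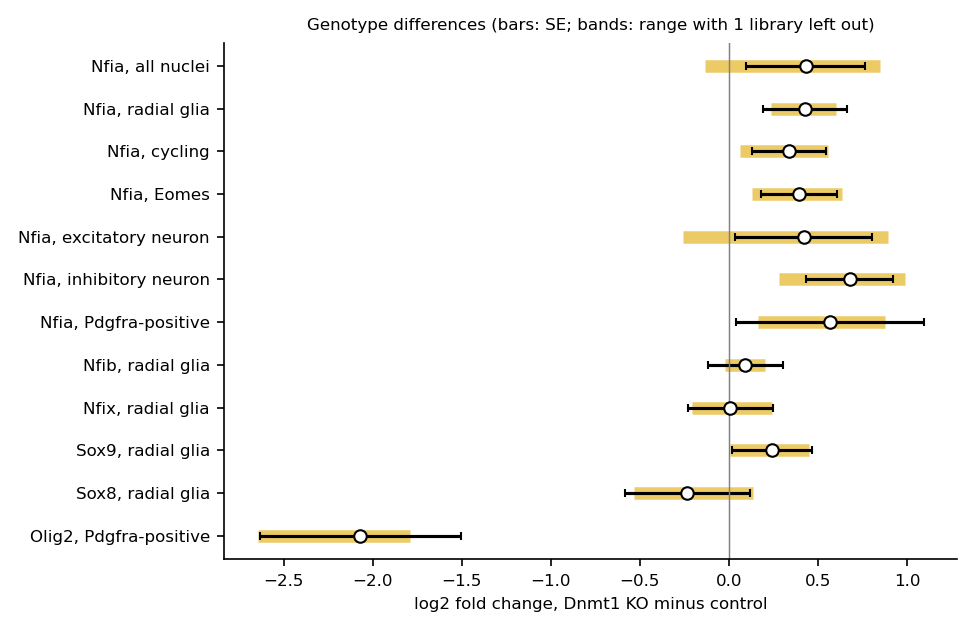
Log2 fold change of Dnmt1 KO over control (horizontal axis, bars for the standard error, bands for the range when 1 library is left out) for the members in each gate. None of the values shown passed edgeR's test, the *Nfia* bands for all nuclei and excitatory neurons cross 0, and the *Olig2* estimate in *Pdgfra*-positive nuclei is -2.07.

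Other genes of glial development were followed as 3 lists. Of the astroglial list 13 of 14 genes tested were called between radial glia and excitatory neurons, 12 of them higher in radial glia (median log2 fold change 3.69), against 57% of all genes and a median over all genes of 0.0027, on the TMM scale, which total scaling shifts by 0.41. *Tnc*, the tenascin C gene of radial glia and astrocytes, was higher in radial glia by 5.91, *Hopx*, a marker of outer radial glia, was higher by 5.32, and the bicarbonate transporter gene *Slc4a4* was the 1 that was lower (-1.89). Of the gliogenic signalling list 17 of 20 were called, 13 higher and 4 lower (median 1.21), led by the Notch targets *Hes5* (5.30, at 8.20 to 25.6 against 0.156 to 0.457 CPM) and *Hes1* (4.55), with *Zbtb16* (-1.59) and *Jak2* (-0.64) lower. The oligodendrocyte lineage list was split, with 9 of 14 called, 6 higher, among them *Bcan* (4.64) and *Sox6* (4.58), and 3 lower, among them *Tnr* (-2.96) and *Lhfpl3* (-1.21), with a median of 0.69.

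In *Pdgfra*-positive nuclei against radial glia, of the oligodendrocyte lineage list 7 of 14 tested were called, all 7 higher (median 1.10), against 23.5% of all genes with a median of -0.035, and the largest were *Lhfpl3* (7.21) and *Bcas1* (6.44), a gene of early myelinating cells at 0, 54.6, 64.4 and 72.5 CPM. Of the astroglial list 8 of 14 were called, 7 of them lower (median -2.08), with *Tnc* lower (-3.15) and *Hepacam*, a glial adhesion gene, higher (1.44). *Gfap* was at 0 in this gate in every library. Of the signalling list 11 of 20 were called, 2 higher, *Zbtb16* (2.86) and *Lifr* (0.73), and 9 lower, among them *Hes5* (-2.07) and *Hes1* (-2.05), with a median of -0.53.

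Between deep and upper layers 5 of 10 astroglial, 7 of 13 oligodendrocyte lineage and 12 of 19 signalling genes were called, against 34.1% of all genes, and the list medians were 0.31, 0.77 and 0.28 against 0.014 over all genes. *Zbtb16*, a zinc finger factor, was higher in deep-layer nuclei (2.85, at 38.7 to 51.2 against 5.89 to 8.94 CPM), as were *Stat3*, which carries gliogenic cytokine signals (2.30), *Vcan* (2.46), *Sparcl1* (2.40) and *Pcdh15* (1.68). *Bmpr1b*, a BMP receptor gene (-2.38), and *Lhx2* (-1.68) were lower. The layer difference of *Nfia* thus stood beside genes of all 3 lists in both directions.

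By genotype in radial glia 0 genes of the 3 lists were called by edgeR, with 3 of 13 astroglial, 2 of 10 oligodendrocyte lineage and 1 of 19 signalling genes at an unadjusted p under 0.05, and the list medians were 0.41, 0.20 and 0.10 against -0.0048 over all genes. The 2 genes of each list with the smallest p all had log2 fold changes above 0. *Gfap* gave 1.74 (SE 0.49), *Vcan* 1.04 (SE 0.29), *Pcdh15* 1.00 (SE 0.17) and *Zbtb20* 0.52 (SE 0.21), with edgeR adjusted p from 0.767 to 0.926. *Stat3* was at 82.8, 68.5, 30.1 and 28.2 CPM (log2 fold change 1.40, SE 0.17, adjusted p = 0.506) and the glutamate transporter gene *Slc1a2* at 200, 215, 91.1 and 83.8 CPM (1.28, SE 0.15, adjusted p = 0.506). In this comparison 0% of genes were called, and the number of all genes that separate the genotypes was not counted. The differences of *Stat3* and *Slc1a2* were not particular to radial glia. *Stat3* and *Slc1a2* gave 0.93 and 0.88 over all nuclei, 0.81 and 1.20 in the *Eomes* gate and 1.13 and 0.89 in excitatory neurons, none called.

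The genes whose levels followed each member most closely were named by Pearson's r of log2(CPM + 1) over 28 sums (7 gates in 4 libraries), as a description over sums that share library and depth. *Nfia* was nearest to *Gm11266* (r = 0.979), a non-coding RNA that overlaps *Nfib* on the opposite strand, *Mmd2* (0.956) and *2610035D17Rik* (0.954). *Nfib* was nearest to *Tgfbr1* (0.946), *Emx1* (0.944) and *Lhx2* (0.934), and *Nfix* to *Rai14* (0.943), *Emx1* (0.942) and *Cd9* (0.939). *Emx1*, a homeobox gene of dorsal telencephalon, thus stood near both. *Sox9* was nearest to *Gm32618* (0.962), *Pdpn* (0.962) and *Vcam1* (0.960), and *Sox8* to *Acsbg1* (0.908), *Sall3* (0.884) and *Stk24* (0.883). *Sox10* was nearest to *Gm10863* (0.988), a non-coding RNA 0.64 kb away, *Gatm* (0.942) and *Cspg4* (0.908), and *Olig1* to the same *Gm10863* (0.952), *Gatm* (0.926) and *Shc4* (0.888). *Olig2* was nearest to *9330188P03Rik* (0.945), *Cspg4* (0.943) and *Pstpip2* (0.928). Between members r was 0.943 to 0.977 among the 3 NFI genes and 0.765 for *Sox9* and *Sox8*. *Sox10* was near *Olig1* (0.965) and *Olig2* (0.902), which had 0.905 between them, and not near its SoxE relatives *Sox9* (0.123) and *Sox8* (0.343). These 3 genes were near 0 outside the *Pdgfra*-positive gate. Their r values, with each other and with the genes named, thus rest mainly on the few *Pdgfra*-positive sums and largely restate counting in that gate. The highest gate means of *Gm10863* and *9330188P03Rik* were 27.0 and 27.3 CPM, near the 20 CPM needed to be compared. *Nfia* had 0.452 with *Sox9* and 0.0244 with *Olig2*.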

How the data were processed

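The authors prepared nuclei from frozen medial neocortex with the Parse Evercode chemistry and deposited unfiltered whole-number counts of transcripts per gene and barcode, made with Trailmaker on build mm39, 1 matrix per library. The version, annotation, strand setting and treatment of introns are not given in the sources used here, and the submitters' processing notes name R 4.4.1 and Seurat 5.0.1.9001 for later steps. Nuclei were kept at 1500 to 60000 transcripts, and a limit of 10% mitochondrial RNA removed 0 of them. Doublets were kept, and scrublet called 2.96% to 7.36% of nuclei at an expected 5%. Nuclei took the first gate they met, in the order *Pdgfra* (at least 2 transcripts, with at most 1 of *Col1a1*, *Col1a2*, *Col3a1* and *Lum*, and otherwise the collagen gate), cycling (at least 4 transcripts of 7 cycling genes), *Eomes*, radial glia (*Pax6* and *Slc1a3*), excitatory (markers including *Neurod2*, *Neurod6* and *Tbr1*) and inhibitory (*Gad1*, *Gad2*), each at a minimum of 2. Deep-layer nuclei had at least 3 transcripts of *Foxp2* and *Tle4* and at most 1 of *Cux2*, and upper-layer nuclei had at least 2 of *Cux2* and at most 1 of the others.

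Raw counts were summed per library and gate, and tested with edgeR 4.0.16 (TMM, filterByExpr, quasi-likelihood, Benjamini-Hochberg adjustment over all genes, calls at 0.05), with the library as a block between gates. DESeq2 1.42.0 was an alternative, in R 4.3.3. Shares were compared by exact permutation over libraries (scipy 1.17.1), and single shares have exact Clopper-Pearson intervals for counting error only. The fits were run on simulated counts that gave every gene the same spread and every library and gate the same mean level. Only genes with enough counts were changed there. That run therefore cannot show how the fits treat sparse members or libraries that differ within a genotype. Each library is 1 brain, and p-values measure the spread between these libraries. Scaling to totals without TMM was added after the data were seen. Other alternatives were the gate minimum (1 or 3), thinning to 5000 transcripts, no doublets, a filter on reads, no low-count filter, no library block, a replicate block and leaving out each library. The members and lists (16 astroglial, 16 oligodendrocyte lineage and 21 gliogenic signalling genes) were chosen with earlier results of these data known. Named were all members, the 3 genes nearest to each by r (of those reaching 20 CPM in a gate, none a member or gate marker), and of each list those called, or the 2 largest and 2 smallest fold changes where more than 4 were called, or the 2 with the smallest p where none was. Not every list gene that meets this rule is given in the text, and the lists are described for some of the comparisons alone. A gate marker and a listed gene are not reported here.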

Additional observations from a re-analysis of the deposited data

How the results depend on the processing

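The replicate block changed no call by genotype, with 0 members called in all 7 comparisons. The labels give no pairing of equal replicate numbers, and deviations from the group means correlated at r = 0.188 over 6037 genes for equal numbers. Without control replicate 2, all libraries were from batch 1, and 0 members were called by genotype. Without a library block 2 members were called between radial glia and excitatory neurons (50.1% of all genes), 2 between *Eomes* and radial glia (30.2%), 1 between *Pdgfra*-positive nuclei and radial glia (21.6%) and 1 between layers (21.5%). Between *Eomes* and radial glia 3 were called at a gate minimum of 1 (32.8% of genes), 3 at a minimum of 3 (35.6%), 2 on thinned nuclei (37.6%) and 2 with total scaling (38.2%). DESeq2 and the removal of doublets each called 3 members between radial glia and excitatory neurons, 4 between *Eomes* and radial glia and 3 between *Pdgfra*-positive nuclei and radial glia, and a gate minimum of 1 called 3 in the first. With 1 library left out, 2 to 4 were called between *Eomes* and radial glia, 2 to 6 between *Pdgfra*-positive nuclei and radial glia (2 without Dnmt1 KO replicate 2 or control replicate 1), 3 to 5 between inhibitory and excitatory neurons (3 without control replicate 1), 3 between radial glia and excitatory neurons, 2 to 3 between layers, and 0 to 1 by genotype in the *Eomes* gate. With no low-count filter 1 member was called by genotype in excitatory neurons (*Nfia*, with 1.92% of genes), 2 in inhibitory neurons (*Nfia* and *Sox8*, with 1.77%) and 1 for the difference of genotype effects between *Pdgfra*-positive nuclei and radial glia (*Sox8*, with 2.37%). The genotype difference in the share of *Pdgfra*-positive nuclei ran from -0.144 to 0.644 points with 1 library left out, and that of radial glia with *Nfia* and *Sox9* was 0.257 points at a gate minimum of 1 and ran from -10.0 to -1.70 with 1 library left out. By genotype, direction was followed for *Nfia* in all 7 comparisons, for *Nfib*, *Nfix*, *Sox9* and *Sox8* in radial glia and for *Olig2* and *Sox10* in *Pdgfra*-positive nuclei. Members in other gates were not followed in this way. Among those followed, log2 fold changes that turned direction, none of them called, were *Nfia* without Dnmt1 KO replicate 1 (-0.13 over all nuclei and -0.26 in excitatory neurons, with highs of 0.85 and 0.89 when another library was left out), *Nfia* in *Pdgfra*-positive nuclei on thinned gates (-0.16), and in radial glia *Nfib* without Dnmt1 KO replicate 1 (-0.022, and up to 0.20 without another), *Nfix* at a gate minimum of 1 (-0.025), with total scaling (-0.019) and without Dnmt1 KO replicate 1 (-0.21) or control replicate 1 (-0.19, and up to 0.24 without another), *Sox9* on thinned gates (-0.10) and *Sox8* at a gate minimum of 1 (0.17) and without control replicate 2 (0.14, and down to -0.53 without another). *Nfib* between radial glia and excitatory neurons went from -0.40 to 0.0048 with total scaling. The cause was not tested in any of these. Among values that answer a comparison, 252 kept direction or, for counts of members called, stayed near the main count. Some of the counts named above are among these 252. Of single genes, 403 values kept direction without crossing the threshold, those without an adjusted p included. The depth limits *Sox8*, *Sox10*, *Olig1* and *Olig2* most, which gave at most 36 transcripts per library and gate in radial glia and *Pdgfra*-positive nuclei, and Dnmt1 KO replicate 1, with 7 *Pdgfra*-positive nuclei.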
